A study of Mus musculus with 9 samples.

Results

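Genes of the extracellular matrix other than collagens, together with the enzymes that modify and cross-link collagen and elastin, were examined in hindlimb muscle of a mouse model of spinal muscular atrophy. The 37 genes were chosen by symbol for what they encode. All 37 were found among the 32594 genes of the count table, and all 37 passed the filter on low counts. Libraries came from 5 wild type samples and 4 SMN delta 7 samples (called SMA here), all of the FVB/N strain background, and each library was made from whole hindlimb skeletal muscle by selection of polyadenylated RNA. The labels name the SMN delta 7 line without its alleles, and give neither age, sex nor litter. No treatment is named for either group. Nothing in the labels says that replicates were separate animals, so the p-values reflect only how far these samples spread, and part of that may be technical.

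Muscle fibres are wrapped in a matrix made mainly by fibroblasts. Its elastic part is built on microfibrils of fibrillin, on which tropoelastin is laid down with the help of fibulins and then joined by lysyl oxidases. Collagen chains are hydroxylated inside the cell on proline and lysine, and the same lysyl oxidases cross-link them outside it. Small proteoglycans bind collagen fibrils and set their diameter and spacing, matricellular proteins tune adhesion and growth factor activity, and matrix metalloproteinases and their tissue inhibitors (TIMPs) govern turnover.

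Counts per library ranged from 24917665 to 35087722. Smn1, the mouse gene for the survival motor neuron protein, was at 11.1 to 13.8 CPM (the count scaled to a TMM-adjusted library of 1000000 counts) in wild type and at 1.40 to 2.72 CPM in SMA, which matched the labels in all 9 libraries. Muscle fibre markers such as Myh4, a fast myosin, summed to 136516 to 193425 CPM in wild type and to 70576 to 84853 CPM in SMA, so both groups were muscle. By Y-linked transcripts 4 of 5 wild type and 1 of 4 SMA libraries were male. On the second principal component of all genes SMA 3 stood alone, at -43.4, while SMA 1, SMA 2 and SMA 4 were at 14.6 to 15.4.

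The upstream sequences of 4 members with a lower level in SMA are shown first, because P4ha1 and P4ha2 encode the same kind of enzyme and moved alike, while Tnc and Timp1 had the largest falls among the 37. Each run is the 250 bases before the RefSeq start site on GRCm38.p6, the build of mm10, read in the direction of transcription. For Tnc, which has 2 entries, the one farther upstream is shown. Capitals mark every TATAAA (the letters of a TATA box) and every ACGTG (a form of the core of the hypoxia response element, here also in its reverse complement CACGT), searched on both strands. The other form of that core, GCGTG, was not searched and is not marked.
P4ha1, chromosome 10, 59323046 to 59323295, plus strand: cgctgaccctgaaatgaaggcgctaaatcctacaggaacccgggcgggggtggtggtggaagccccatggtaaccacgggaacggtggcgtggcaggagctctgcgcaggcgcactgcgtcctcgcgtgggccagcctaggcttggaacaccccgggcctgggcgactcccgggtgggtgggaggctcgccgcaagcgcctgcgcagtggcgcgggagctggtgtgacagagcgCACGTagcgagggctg
P4ha2, chromosome 11, 54100674 to 54100923, plus strand: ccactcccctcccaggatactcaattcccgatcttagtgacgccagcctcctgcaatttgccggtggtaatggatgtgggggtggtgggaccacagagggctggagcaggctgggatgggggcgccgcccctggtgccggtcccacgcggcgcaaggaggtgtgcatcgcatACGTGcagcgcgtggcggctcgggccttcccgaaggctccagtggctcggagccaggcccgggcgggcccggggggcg
Tnc, chromosome 4, 64047016 to 64047265, minus strand: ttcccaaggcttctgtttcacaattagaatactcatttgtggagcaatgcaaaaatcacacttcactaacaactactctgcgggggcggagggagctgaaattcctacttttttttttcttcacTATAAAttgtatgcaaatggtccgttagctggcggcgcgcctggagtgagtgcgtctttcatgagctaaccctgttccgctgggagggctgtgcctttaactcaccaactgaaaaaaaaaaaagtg
Timp1, chromosome X, 20869916 to 20870165, plus strand: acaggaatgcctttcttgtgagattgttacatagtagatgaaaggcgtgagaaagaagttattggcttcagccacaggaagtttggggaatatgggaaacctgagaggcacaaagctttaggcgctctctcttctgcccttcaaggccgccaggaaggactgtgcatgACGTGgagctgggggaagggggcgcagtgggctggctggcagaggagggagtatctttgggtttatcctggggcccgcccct

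P4ha1, P4ha2 and Timp1 each held 1 ACGTG, starting 16, 78 and 82 bases before the start site. The TATAAA marked in Tnc started 126 bases before the start site, and whether it serves as a TATA box was not tested. Among the 24 members with an entry in the RefSeq table, 6 had ACGTG in the same window (Aspn, Fbln1, Mmp14, P4ha1, P4ha2 and Timp1), in at least 1 of their entries. Counted by entry, as the background is, 7 of the members' 29 entries held it, or 24.1%, against 16.6% of 32851 promoters. Of these 6, Aspn and Mmp14 did not pass the test between groups described next. TATAAA was present in 6 of the 24 members and 7 of the 29 entries, again 24.1%, against 12.4% of all promoters. The search also covered GGGCGG and CCAAT, which are not marked. GGGCGG was in 62.1% of the members' entries against 32.7% of all promoters, and CCAAT in 34.5% against 33.8%. These are matches of letters and not measured binding sites.

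In SMA muscle most members that differed were lower, and the 3 that rose did so slightly. Of the 37 genes 19 fell, 3 rose and 15 did not pass (quasi-likelihood test in edgeR, p adjusted by Benjamini-Hochberg over 15873 genes, threshold 0.05). A call in either direction was made for 54.9% of all genes. The 51.4% that fell stood beside 27.2% of all tested genes, and the 8.11% that rose beside 27.7%. The median log2 fold change was -0.48 for the members and 0.006 for all genes tested. At least a 2-fold fall was called for 7 members, or 18.9%, against 6.28% of all genes, and no member rose 2-fold, as 8.27% of all genes did. For 14 members every SMA library lay below every wild type library, or 37.8%, against 21.7% of all genes, and for 0 members did all SMA libraries lie above, as in 22.6% of all genes. In either direction 44.2% of all genes had no overlap. Scaling to total counts in place of TMM moved the median of all genes up by 0.23 on the log2 scale. It left 13 members lower and 5 higher, beside 13.6% and 40.2% of all genes. With sex as a covariate 17 fell and 1 rose, beside 21% and 22.4% of all genes, and the calls lost were Eln, Plod1, Fn1 and Thbs3. Without SMA 3 and WT 5, 22 fell and 5 rose, beside 29.5% and 29.4% of all genes. With the replicate number as a block 23 fell and 3 rose, beside 24.6% and 25% of all genes.

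**Figure D1:**
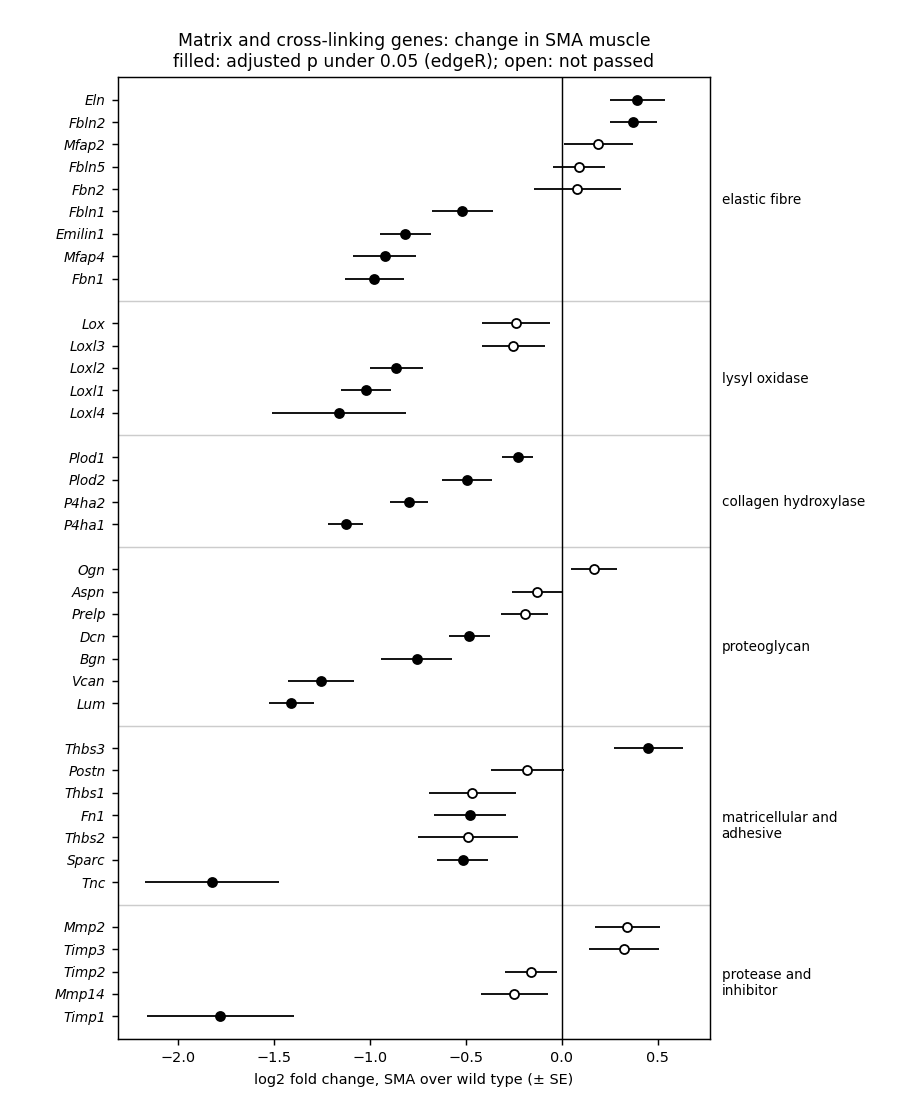
Log2 fold change of each of the 37 genes in SMA over wild type muscle (x axis, log2 units, bars are the SE of edgeR's fit), grouped by role. Filled points passed an adjusted p of 0.05 and open points did not; 19 filled points lie below 0 and 3 above it.

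Elastic fibre genes were divided. Fbn1, Mfap4, Emilin1 and Fbln1 fell, Eln and Fbln2 rose, and Fbn2, Mfap2 and Fbln5 did not pass. Fbn1 (chromosome 2, 125300594 to 125507993, minus strand, mm10) encodes fibrillin-1, the backbone of microfibrils. It was at 181, 248, 207, 181 and 136 CPM in wild type libraries 1 to 5 and at 101, 105, 79.3 and 101 CPM in SMA libraries 1 to 4. All SMA libraries were lower, with SMA 3 lowest. Fbn1 fell by 0.98 ± 0.15 on the log2 scale (SE; edgeR adjusted p = 2.26e-04). Mfap4, whose product binds fibrillin and elastin, stood at 103, 164, 132, 137 and 90.02 CPM in wild type and 74.5, 65.0, 55.0 and 69.4 CPM in SMA, without overlap. Its log2 fold change was -0.93 ± 0.16 (edgeR adjusted p = 4.93e-04). Emilin1, a glycoprotein at the border of elastin and microfibrils, ranged from 27.7 to 45.8 CPM in wild type and from 19.96 to 23.0 CPM in SMA, a log2 fold change of -0.82 ± 0.13. Fbln1, a fibulin also found in basement membranes, was a lowly expressed member at 6.29 to 10.1 and 5.12 to 6.23 CPM. The gap between its groups was small, and its log2 fold change of -0.52 ± 0.16 did not pass under scaling to total counts (adjusted p = 0.19 by edgeR) or without WT 1 and WT 2 (adjusted p = 0.123).

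Eln (chromosome 5, 134702593 to 134747323, minus strand) encodes tropoelastin, the elastic protein itself. Its level was 284, 314, 271, 228 and 182 CPM in wild type and 321, 388, 303 and 333 CPM in SMA. SMA 3 lay below WT 2, so the groups overlapped, while the other SMA libraries were above all wild type libraries. Eln rose by 0.39 ± 0.14 (edgeR adjusted p = 0.0349), and by 0.61 under scaling to total counts. Leaving out WT 4, SMA 1, SMA 2 or SMA 4 raised its adjusted p to between 0.0567 and 0.113. Fbln2, a fibulin of elastic fibres and vessel walls, had 61.3, 84.1, 70.1, 62.3 and 56.7 CPM in wild type and 86.7, 99.2, 71.2 and 89.3 CPM in SMA. Again SMA 3 alone fell within the wild type range. The log2 fold change of Fbln2 was 0.37 ± 0.12 (edgeR adjusted p = 0.0222), 0.59 under scaling to total counts, and it did not pass without WT 1, SMA 2 or SMA 4 (adjusted p from 0.0536 to 0.0792).

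Fibrillin-2, encoded by Fbn2 and known from developing tissue, had a log2 fold change of 0.08 ± 0.23, with 4.75 to 12.4 CPM in wild type and 7.97 to 11.5 CPM in SMA. Mfap2, a small microfibril protein gene, changed by 0.19 ± 0.18, and Fbln5, which helps lay elastin onto microfibrils, by 0.09 ± 0.13. Neither of the last 2 passed under any of the 17 alternatives, nor did Fbn2. Among other elastic fibre genes, 7 of 13 fell, 2 rose and 4 did not pass, with a median of -0.28. Those with the lowest adjusted p were Fbln7, another fibulin, which fell by 1.49 ± 0.10, and Adamtsl4, whose product binds fibrillin-1, which rose by 1.70 ± 0.16. Adamtsl4 went from 19.6 to 29.4 CPM in wild type to 55.6 to 96.9 CPM in SMA.

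**Figure D2:**
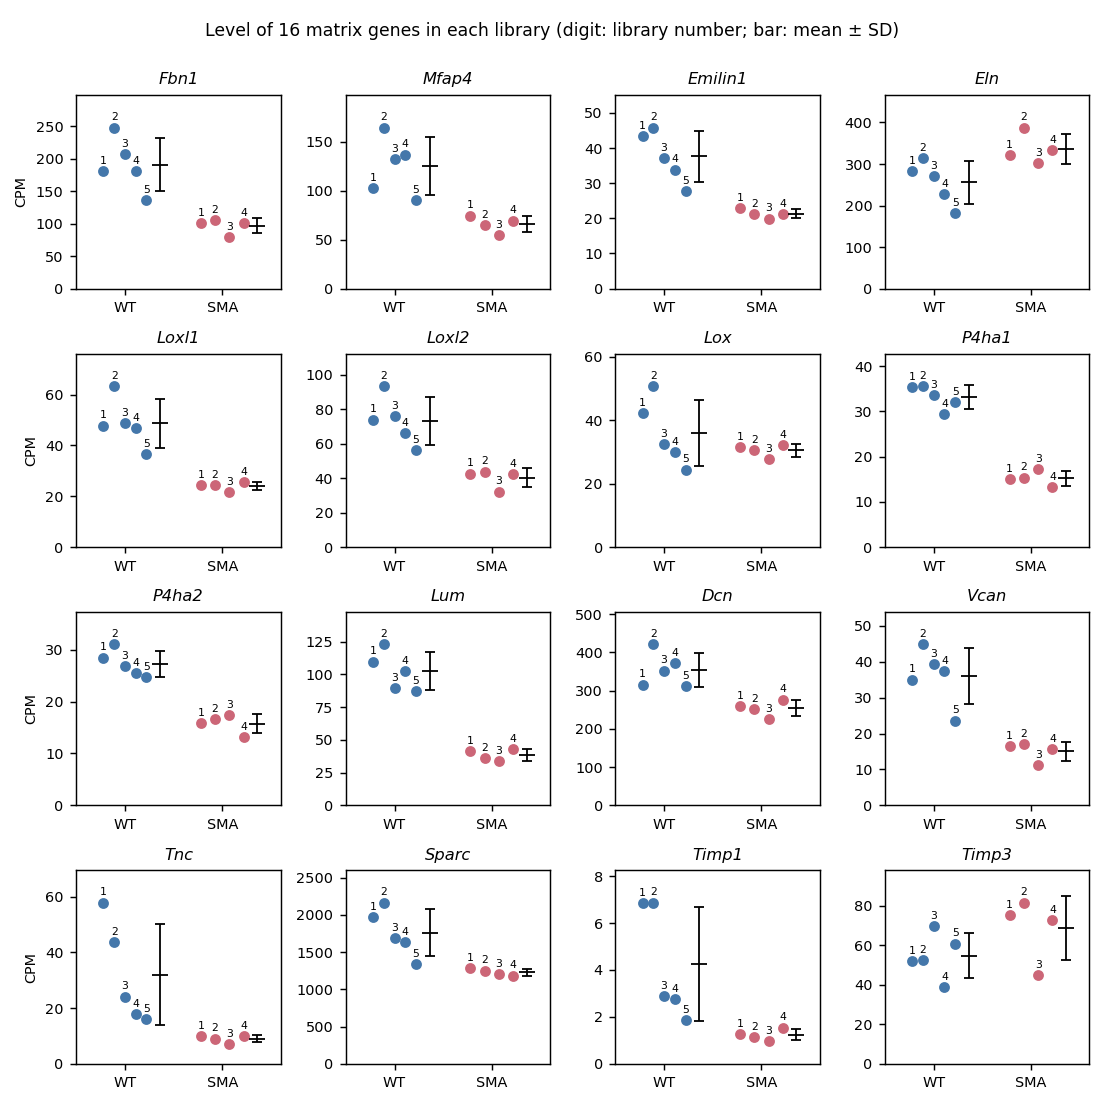
CPM (y axis, linear from 0) of 16 of the genes in each library, wild type in blue and SMA in red, with the library number beside each point and the mean ± SD as a bar. Loxl1, P4ha1 and Lum are separated by wide gaps, Eln and Lox overlap between groups, and the wild type points of Tnc and Timp1 are spread with WT 1 and WT 2 on top.

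The lysyl oxidases oxidise lysine side chains of collagen and elastin and so start their cross-links. Loxl1, Loxl2 and Loxl4 fell, and Lox and Loxl3 did not pass. Loxl1 (chromosome 9, 58287738 to 58313186, minus strand), whose product acts mainly on elastin, was at 47.7, 63.4, 48.7, 46.9 and 36.6 CPM in wild type and at 24.4, 24.4, 21.6 and 25.5 CPM in SMA. No SMA library came near the wild type range. It fell by 1.02 ± 0.13 (edgeR adjusted p = 5.07e-05). Loxl2, which cross-links the collagen IV of basement membranes, stood at 73.8, 93.4, 75.8, 66.1 and 56.0 CPM and at 42.5, 43.8, 32.1 and 42.2 CPM, again without overlap and with SMA 3 lowest. Loxl2 had a log2 fold change of -0.86 ± 0.14 (edgeR adjusted p = 2.92e-04). Loxl4 was near the bottom of the expressed range, at 0.815 to 2.46 CPM in wild type and 0.531 to 1.18 CPM in SMA. WT 1 and WT 2 were its highest libraries, and SMA 4 lay within the wild type range. Loxl4 had a log2 fold change of -1.16 ± 0.35 (edgeR adjusted p = 0.0137), which was -0.72 (adjusted p = 0.124) without WT 1 and WT 2.

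Lox itself, the founding enzyme of the family, measured 42.2, 50.8, 32.4, 30.0 and 24.4 CPM in wild type and 31.4, 30.6, 27.6 and 32.1 CPM in SMA. All SMA libraries lay within the wild type range, between WT 5 and WT 3, with a log2 fold change of -0.24 ± 0.18 (edgeR adjusted p = 0.268) that was 0.07 without WT 1 and WT 2. Loxl3, with 9.002 to 18.4 and 9.96 to 11.5 CPM, changed by -0.25 ± 0.16 (edgeR adjusted p = 0.207) and passed without WT 5, at -0.36 (adjusted p = 0.0375). Within a library, Loxl3 counts per Loxl1 count were 0.246 to 0.290 in wild type and 0.407 to 0.532 in SMA. This ratio needs no scaling, was chosen after the values were seen and was not tested.

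The 4 collagen hydroxylase members fell, by unequal amounts. P4ha1 and P4ha2 encode catalytic subunits of prolyl 4-hydroxylase, whose product hydroxyproline keeps the collagen triple helix stable at body temperature. P4ha1 (chromosome 10, 59323296 to 59373304, plus strand) was at 35.4, 35.6, 33.6, 29.4 and 32.1 CPM in wild type and 14.9, 15.3, 17.3 and 13.2 CPM in SMA. P4ha2 (chromosome 11, 54100095 to 54131665, plus strand) was at 28.5, 31.0, 26.8, 25.5 and 24.7 CPM and at 15.9, 16.6, 17.3 and 13.1 CPM. Both were tight in wild type and far apart between groups, and SMA 3, lowest for most members, was the highest SMA library for both. P4ha1 fell by 1.13 ± 0.09 (edgeR adjusted p = 1.74e-06) and P4ha2 by 0.80 ± 0.10 (edgeR adjusted p = 4.07e-05). Their coefficients of variation (the SD as a percentage of the mean) in wild type were 7.78% and 9.25%, against a median of 21.4% over the 37 members. In SMA they were 11.1% and 11.8%, near the median of 12.2%.

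Plod1 and Plod2 encode lysyl hydroxylases, which prepare collagen lysines for cross-linking and sugar attachment, and Plod2 acts on the ends of the chains. Plod2 was at 18.6, 15.7, 14.4, 13.4 and 11.2 CPM in wild type and 9.93, 10.1, 10.1 and 11.3 CPM in SMA. Only SMA 4 reached above the lowest wild type library. Plod2 fell by 0.50 ± 0.13 (edgeR adjusted p = 0.00679), and it did not pass under scaling to total counts (-0.27, adjusted p = 0.171). Plod1 ranged from 67.1 to 82.8 CPM and from 59.7 to 68.6 CPM, a log2 fold change of -0.23 ± 0.08 (edgeR adjusted p = 0.0305). Plod1 did not pass when counts were scaled to library totals, with sex as a covariate and without WT 1, WT 2, WT 3, SMA 1 or SMA 4 (adjusted p from 0.0512 to 0.992). Among other collagen processing genes, 9 of 18 fell, 2 rose and 7 did not pass, with a median of -0.34. The collagen chaperone gene Serpinh1 fell by 1.23 ± 0.09 and the procollagen proteinase enhancer gene Pcolce by 0.98 ± 0.12, both without overlap. P4hb, the partner subunit of prolyl 4-hydroxylase and also a general disulfide isomerase, and Plod3, the remaining lysyl hydroxylase, were looked up after the data were seen and changed by 0.07 ± 0.08 and 0.03 ± 0.08, not passing.

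Proteoglycan genes were lower where they changed. Lum, Vcan, Bgn and Dcn fell, and Prelp, Ogn and Aspn did not pass. Lum (chromosome 10, 97565128 to 97572703, plus strand) encodes lumican, which limits the thickness of collagen fibrils. It was at 109.8, 123, 89.8, 103 and 87.3 CPM in wild type and at 41.3, 36.1, 33.8 and 43.0 CPM in SMA. The highest SMA library was under the lowest wild type library by a wide margin. Lum fell by 1.41 ± 0.12 (edgeR adjusted p = 1.76e-06), a 2.66-fold difference of means. Its neighbour Dcn (chromosome 10, 97479609 to 97518143, plus strand), 46984 bases away, encodes decorin, which also coats collagen fibrils and binds TGF-beta. Dcn was at 316, 421, 352, 372 and 312 CPM and at 260.0, 253, 226 and 277 CPM, without overlap but with a smaller gap. The log2 fold change of Dcn was -0.48 ± 0.11 (edgeR adjusted p = 0.00235), and -0.26 (adjusted p = 0.113) under scaling to total counts. Dcn counts per Lum count were 2.88 to 3.92 in wild type and 6.29 to 7.00 in SMA, a pair chosen after its values were seen and not tested.

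Vcan encodes versican, a large proteoglycan that binds hyaluronan and is rich in growing tissue. Its level was 35.0, 44.9, 39.3, 37.5 and 23.6 CPM in wild type and 16.5, 17.0, 11.3 and 15.6 CPM in SMA. WT 5 was the wild type library nearest to SMA, and the groups did not overlap. Vcan fell by 1.26 ± 0.17 (edgeR adjusted p = 8.73e-05). Bgn, which encodes biglycan, a relative of decorin, was at 160.3, 229, 169, 148 and 104 CPM and at 113, 97.6, 78.7 and 93.7 CPM. SMA 1 lay above WT 5, and the log2 fold change was -0.76 ± 0.19 (edgeR adjusted p = 0.00445).

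Prelp, a proteoglycan that ties basement membrane to collagen, changed by -0.19 ± 0.12, Ogn, encoding osteoglycin, by 0.17 ± 0.12 and Aspn, encoding asporin, by -0.13 ± 0.13. Their levels overlapped between groups, at 14.5 to 22.3, 36.1 to 59.8 and 39.1 to 67.5 CPM over all 9 libraries. Ogn rose without WT 2, at 0.26 (edgeR adjusted p = 0.048). Among 18 other proteoglycan genes tested, 9 fell, 2 rose and 7 did not pass, with a median of -0.50. Sdc4 and Sdc2, which encode cell surface heparan sulphate proteoglycans, moved apart, with 0.92 ± 0.08 for Sdc4 and -0.90 ± 0.12 for Sdc2.

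Among matricellular and adhesive genes Tnc, Sparc and Fn1 fell, Thbs3 rose, and Postn, Thbs1 and Thbs2 did not pass. Tnc (chromosome 4, 63959785 to 64047015, minus strand) encodes tenascin-C, which is made in tendon, growing tissue and wounds. Its level was 57.8, 43.6, 24.1, 17.9 and 16.2 CPM in wild type and 9.99, 9.05, 7.13 and 9.80 CPM in SMA. Wild type libraries spread widely, with WT 1 and WT 2 highest, and all lay above SMA. Tnc fell by 1.82 ± 0.35 (edgeR adjusted p = 9.07e-04), and by 1.11 (adjusted p = 5.25e-04) without WT 1 and WT 2, a setting chosen after the data were seen. Sparc, which encodes a calcium-binding protein that chaperones collagen in the matrix, was the most abundant member. It stood at 1975, 2165, 1691, 1631 and 1342 CPM in wild type and 1284, 1252, 1203 and 1184 CPM in SMA, with a narrow gap between WT 5 and SMA 1. The log2 fold change of Sparc was -0.52 ± 0.13 (edgeR adjusted p = 0.0057), -0.34 (adjusted p = 0.033) without WT 1 and WT 2, and -0.30 (adjusted p = 0.122) under scaling to total counts.

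Fn1, encoding fibronectin, which links cells to collagen through integrins, was at 174, 248, 190.1, 170.2 and 119 CPM in wild type and 147, 146, 95.1 and 129.5 CPM in SMA. The groups overlapped, and the log2 fold change of -0.48 ± 0.19 was close to the threshold (edgeR adjusted p = 0.0459). It was lost on leaving out any library other than WT 5, with adjusted p from 0.0525 to 0.111. Thbs3, a thrombospondin gene also made in tendon and bone, was at 44.5, 61.2, 46.3, 44.6 and 25.4 CPM and at 60.7, 61.7, 58.4 and 62.2 CPM. WT 2 lay among the SMA libraries, whose coefficient of variation was 2.75%. Its rise of 0.45 ± 0.18 was also close to the threshold (edgeR adjusted p = 0.0498) and did not pass on leaving out any library other than WT 2 or WT 5, with adjusted p from 0.06 to 0.0945. Postn, encoding periostin, a fibroblast protein that promotes collagen cross-linking, changed by -0.18 ± 0.19, with 167 to 331 CPM in wild type and 154 to 255 CPM in SMA. Thbs1, an activator of latent TGF-beta, changed by -0.47 ± 0.23 and Thbs2 by -0.49 ± 0.26, with wide overlap in both. Without WT 4 Thbs1 passed, at -0.57 (edgeR adjusted p = 0.0494), and without WT 5 Thbs2 did, at -0.65 (adjusted p = 0.024). Among 17 other matricellular genes tested, 9 fell, 3 rose and 5 did not pass, with a median of -0.59, and the pair with the lowest adjusted p was Spock2 at 2.96 ± 0.18 and Smoc2 at -1.27 ± 0.08.

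The protease genes among the members, Mmp2 and Mmp14, did not pass, and of 3 inhibitor genes Timp1 fell. Timp1 (chromosome X, 20870166 to 20874735, plus strand) encodes the inducible inhibitor of metalloproteinases. It was at 6.86, 6.87, 2.90, 2.76 and 1.88 CPM in wild type and 1.26, 1.14, 0.978 and 1.54 CPM in SMA. WT 1 and WT 2 again stood above the other wild type libraries, and no library of SMA reached the wild type range. Timp1 fell by 1.78 ± 0.38 (edgeR adjusted p = 0.00196), and by 1.03 (adjusted p = 0.00699) without WT 1 and WT 2. Timp2, which also helps activate the protease of Mmp2, changed by -0.16 ± 0.13 with 83.1 to 134 and 84.1 to 113 CPM. Timp3, the inhibitor that is bound to the matrix, was at 52.0, 52.6, 69.8, 39.0 and 60.9 CPM in wild type and 75.2, 81.7, 45.0 and 72.9 CPM in SMA. Apart from SMA 3 the SMA libraries were above all wild type libraries. The log2 fold change of Timp3 was 0.32 ± 0.18 (edgeR adjusted p = 0.15), 0.48 (adjusted p = 0.0147) without SMA 3 and 0.56 (adjusted p = 0.0109) under scaling to total counts.

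Mmp2 encodes gelatinase A, which cuts denatured collagen and basement membrane, and Mmp14 the membrane protease that activates it. Mmp2 was at 133, 151, 115, 109 and 83.7 CPM in wild type and 163, 156, 107 and 172 CPM in SMA. Here too SMA 3 was the SMA library within the wild type range. The log2 fold change was 0.34 ± 0.17 (edgeR adjusted p = 0.108), 0.47 (adjusted p = 0.0202) without SMA 3, 0.44 (adjusted p = 0.0432) without WT 2 and 0.55 (adjusted p = 0.0258) under scaling to total counts. Mmp14 changed by -0.25 ± 0.18, with 50.9 to 103 and 59.0 to 73.3 CPM, and passed without WT 5, at -0.38 (adjusted p = 0.0282). Of 21 other protease and inhibitor genes tested, 12 fell, 2 rose and 7 did not pass, with a median of -0.47. The inhibitor gene Timp4, abundant in heart, rose by 2.80 ± 0.25, from 3.36 ± 1.04 to 23.6 ± 7.12 CPM (SD, n = 5 and 4), and Adam12, a membrane protease gene of forming muscle, fell by 0.85 ± 0.11.

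Per kilobase of annotated exon, the mean wild type level of the members ran from 0.410 CPM per kb for Loxl4 to 465 for Sparc. Mfap4 at 65.2, Dcn at 60.8 and Lum at 41.9 CPM per kb came next in wild type. In SMA the order after Sparc, at 325 CPM per kb, was Mmp2 at 44.4, Dcn at 43.5 and Eln at 41.5 CPM per kb. Lum was at 15.7 CPM per kb in SMA. These neighbours in the SMA order overlap in their library ranges. Together the members took 0.430% ± 0.108 of all counts in the 5 wild type libraries and 0.385% ± 0.0152 in the 4 SMA libraries (mean ± SD), and the groups overlapped.

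The same libraries were often at the ends of the range. In wild type, WT 2 was the highest library for 30 of 37 members, or 81.1%, against 22.3% of all genes, and WT 5 the lowest for 32, or 86.5%, against 30.3%. Among SMA libraries, SMA 3 was the lowest for 31, or 83.8%, against 36.6% of all genes. The highest SMA library varied, with 11 members each for SMA 1, SMA 2 and SMA 4 and 4 for SMA 3 (P4ha1, P4ha2, Plod1 and Loxl3). The median coefficient of variation was 21.4% in wild type and 12.2% in SMA, and 34 members varied more in wild type. This spread was not computed over all genes, so it cannot be called particular to the members. Wild type varied most for Timp1 (56.8%), Tnc (56.8%) and Loxl4 (40.7%).

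Several marker lists moved with these differences. Fibroblast markers, 15 in all, summed to 749 to 1068 CPM in wild type and 682 to 739 CPM in SMA, and 8 of the 14 tested fell and 1 rose. Without Cd34 the fibroblast sums overlapped, at 550.2 to 798 and 515 to 582 CPM. The one that rose was Pdgfra, the receptor that defines fibro-adipogenic progenitors, at 30.2 to 46.4 CPM in wild type and 42.6 to 49.8 CPM in SMA. Among 8 tenocyte markers 7 fell, and their sum was 150.5 to 328 CPM in wild type and 80.3 to 152 CPM in SMA. Cartilage and bone markers, 9 in all, summed to 178 CPM in WT 1 and 79.2 CPM in WT 2, to 16.2 to 25.2 CPM in the other wild type libraries and to 9.98 to 13.2 CPM in SMA. Bglap, which encodes the bone protein osteocalcin, was at 111 CPM in WT 1, 19.1 CPM in WT 2 and 0.133 to 4.04 CPM in the remaining 7 libraries. Macrophage markers summed to 145 to 189 and 96.6 to 127 CPM, with 5 of 10 lower and 1 higher. Without Mrc1 their sums were 97.3 to 140.2 and 84.1 to 109.7 CPM and overlapped. Sums of endothelial markers overlapped, at 865 to 1056 and 815 to 1028 CPM, and Schwann cell markers were higher, at 405 to 936 and 1047 to 2344 CPM. Satellite cell markers summed to 107 to 126 and 145 to 168 CPM, with 4 of 7 higher and 1 lower, and without Sdc4 to 63.2 to 84.5 and 77.5 to 89.4 CPM, which overlap. Mural cell markers summed to 2851 to 3264 and 2600 to 2809 CPM, with 4 of 10 lower and 1 higher. Without Acta2 their sums were 2325 to 2719 and 2513 to 2687 CPM, again with overlap. Most of each mural sum was Des, at 1965 to 2416 CPM in wild type and 2242 to 2395 CPM in SMA, which did not pass. The mural sums, and their overlap without Acta2, therefore mainly follow Des. In each list the gene left out is the one whose mean differed most between groups. Adipocyte markers summed to 14.6 to 68.9 and 9.70 to 38.9 CPM. No listed marker was at 0 in every library. The part of these cell types in the levels of the members was not tested, and in whole muscle fewer cells of a type cannot be told apart from less RNA per cell. Without WT 1 and WT 2, 15 of the 37 members fell and 5 rose, beside 23% and 23.8% of all genes. All 15 were among the 19 that fell in the main fit, and those lost were Fbln1, Loxl4, Plod1 and Fn1.

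**Figure D3:**
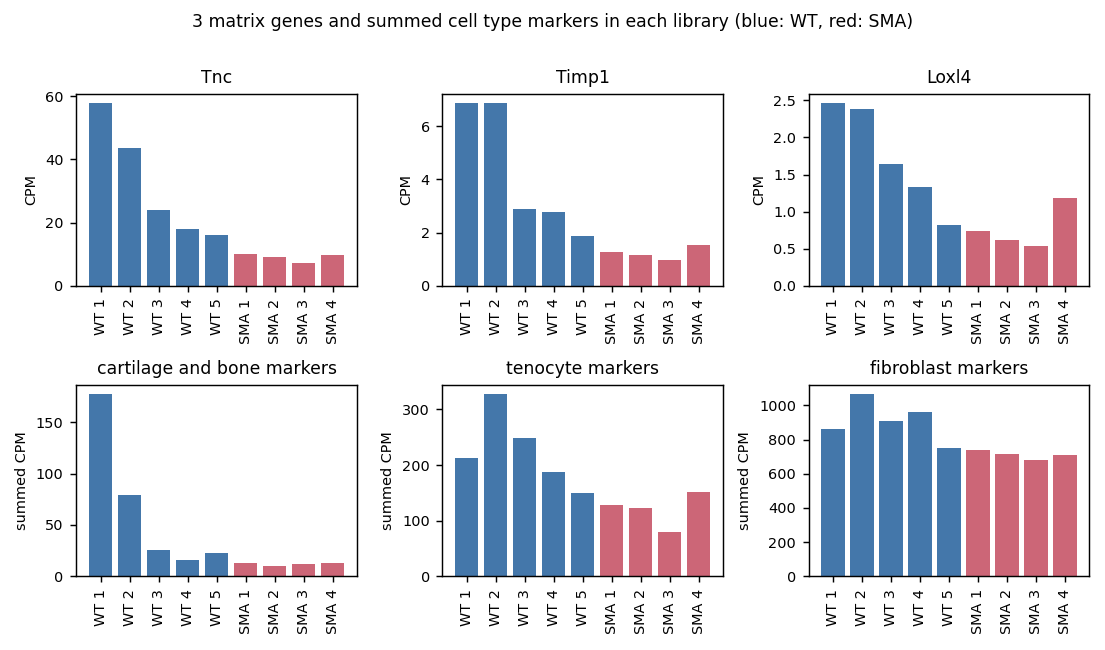
CPM of Tnc, Timp1 and Loxl4 (upper row) and summed CPM of cartilage and bone, tenocyte and fibroblast markers (lower row) in each library, wild type in blue and SMA in red. WT 1 and WT 2 are highest for the 3 genes and for the cartilage and bone markers.

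Fibrillar collagens, the substrate of the cross-linking and hydroxylating enzymes, fell as well. Col1a1 dropped from 1411 ± 612 to 486 ± 108 CPM (SD, n = 5 and 4; log2 fold change -1.54 ± 0.30), Col1a2 by 1.28 ± 0.27 and Col3a1 by 0.64 ± 0.16 on the log2 scale. Of 6 fibrillar collagen genes 5 fell and 1 did not pass. Members were therefore also counted per count of Col1a1, Col1a2 and Col3a1 in the same library, which needs no scaling. These collagens took 0.671% and 0.752% of all counts in WT 1 and WT 2, the libraries with the most cartilage and bone markers. They took 0.301% to 0.527% in WT 3 to WT 5 and 0.228% to 0.335% in SMA. The measure was not computed without WT 1 and WT 2. On this measure 21 members were higher in all SMA libraries than in all wild type libraries, or 56.8%, but so were 52.8% of all genes, so the share is near the background. Tnc and Timp1 were lower in all SMA libraries, 5.41% of the members against 0.995% of all genes. Tnc had 0.400 to 0.786 counts per 100 collagen counts in wild type and 0.295 to 0.363 in SMA. For Timp1 the groups almost touched, with WT 3 at 0.0505 and SMA 4 at 0.0502, on 76 and 55 counts of the gene. Per 100 counts of these collagens, Eln had 3.86 to 5.10 counts in wild type and 10.2 to 15.4 in SMA, and Mmp2 1.81 to 2.43 and 5.07 to 5.60. Loxl1 had 0.649 to 1.05 and 0.781 to 1.10, P4ha1 0.481 to 0.883 and 0.429 to 0.882, and Fbn1 2.47 to 4.03 and 3.24 to 4.04, so these 3 overlapped between groups.

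**Figure D4:**
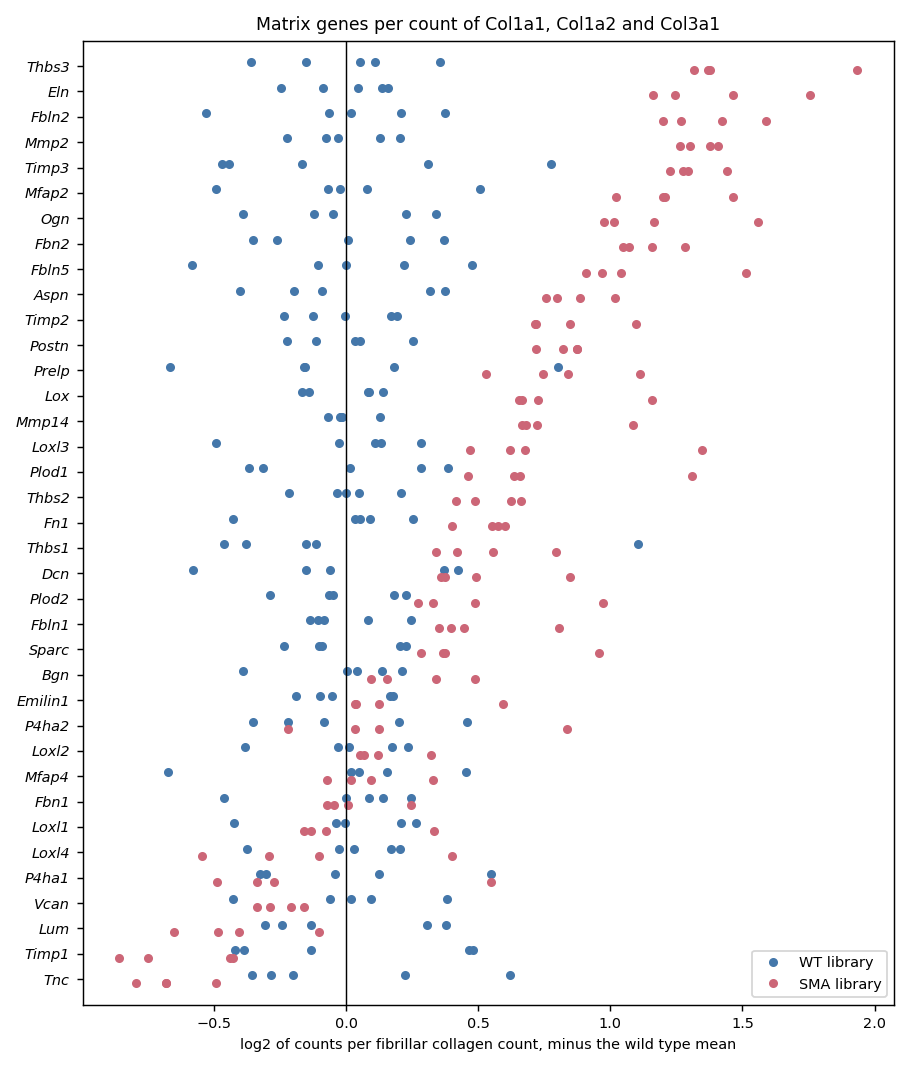
Log2 of counts per fibrillar collagen count for each member, minus the wild type mean of that member (x axis, log2 units), with wild type libraries in blue and SMA libraries in red. Thbs3, Eln and Fbln2 lie at the top with SMA libraries to the right, Loxl1 and Fbn1 overlap, and Tnc and Timp1 lie at the bottom with SMA libraries to the left.

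TGF-beta is a main inducer of matrix genes, and integrins are the receptors that bind them. Of 16 TGF-beta signalling genes 5 fell, 2 rose and 9 did not pass, with a median of -0.02. Smad3, which carries the signal to the nucleus, fell by 1.28 ± 0.11, from 94.0 to 131 CPM in wild type to 38.9 to 48.2 CPM in SMA. Tgfbr3, the co-receptor betaglycan, rose by 0.99 ± 0.09. Of 19 integrin and collagen receptor genes 5 fell, 4 rose and 10 did not pass, with a median of -0.09. Over all genes tested 27.2% fell and 27.7% rose, so in both lists the share that fell was near that of all genes. Itgav, a subunit of fibronectin and TGF-beta binding integrins, fell by 0.90 ± 0.08, and Itga1, part of a collagen-binding integrin, by 1.40 ± 0.14. Over all related lists together 61 of 128 tested genes fell and 17 rose, with a median of -0.37. These counts, and those of each related list above, stand beside the same 27.2% and 27.7% of all genes.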

How the data were processed

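RNA of hindlimb muscle was measured in 5 wild type and 4 SMA libraries, with groups and replicate numbers from the labels. Stranded mRNA libraries were made from 200 ng of RNA (integrity number over 7) and read as pairs of 75 bases, per the labels' protocols. The submitters' processing notes name DESeq2 1.16.1, HTSeq 0.9.1 and build mm10 without their roles. Strand setting, gene annotation and aligner were not given in the sources used here. Whole-number counts per gene were deposited by the authors, as was a table of signal per gene, which equals the counts after division by the library's size factor (0.734 to 1.23).

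Tests used edgeR 4.0.16 under R 4.3.3 (filterByExpr, TMM scaling, quasi-likelihood test with group as the only term, Benjamini-Hochberg adjustment over 15873 genes). The SE is the log2 fold change divided by the square root of F. Alternatives were DESeq2 1.42.0, other scalings, no filter, a replicate block, sex as a covariate, and libraries left out. On simulated counts with 200 of 15873 genes changed, 41.8% of 1.5-fold, 76.1% of 2-fold and 97% of 4-fold changes were recovered, with 7 false calls. A far smaller share of genes was changed there than the 54.9% called here, so these rates do not give the power or error of this comparison. No pair of replicates agreed within sampling noise (chi-square per degree of freedom from 11.2 to 81.3). Positions, exon lengths and overlaps are from GENCODE M21, and promoter sequences from RefSeq on GRCm38.p6. Exons of 15 members overlap a gene on the opposite strand (Fbn1 by 2442 and Timp3 by 1733 bases), and how such reads were counted is not stated. Symbols of 5 CCN genes were matched by older names. The members, lists and tests were chosen with earlier results of these data known. Named genes are all members, Smn1, Col1a1, Col1a2, Col3a1, the 2 genes of each related list with the lowest adjusted p and the top gene of marker lists; others are named as chosen after the data were seen, as were Pdgfra and Bglap.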

Additional observations from a re-analysis of the deposited data

Results flagged for a closer look

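Each group of each of the 37 genes, 74 groups in all, was searched for a library whose distance from its nearest neighbour took up most of the range of the group. This was so in 4 groups, where chance gives about 1 in 20, so 4 of 74 is near what chance alone gives. SMA 3 had 79.3 CPM of Fbn1, while the other SMA libraries had 101 to 105 CPM. SMA 3 also had 32.1 CPM of Loxl2, with 42.2 to 43.8 CPM in the others. SMA 4 had 59.7 CPM of Plod1, against 68.4 to 68.6 CPM, and 11.3 CPM of Plod2, against 9.93 to 10.1 CPM. Fbn1 and Loxl2 passed on leaving out any single library.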

How the results depend on the processing

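DESeq2 changed the test, scaling and filter together (19653 genes tested), and both settings that leave out 2 libraries are joint. Among the 37 genes, 12 fell under all 17 alternatives: Fbn1, Mfap4, Emilin1, Loxl1, Loxl2, P4ha1, P4ha2, Bgn, Lum, Vcan, Tnc and Timp1. The share of all genes that did so was not computed, so this count has no background. The number of members that rose, 3, was 5 under scaling to total counts, 1 with sex as a covariate, 5 without SMA 3 and WT 5, 5 without WT 1 and WT 2 (an alternative added after the data were seen) and 0 to 5 on leaving out single libraries. The number that fell, 19, was 13 under scaling to total counts, 17 with sex as a covariate and 17 to 22 on leaving out single libraries. On leaving out single libraries, 24.4% to 28.2% of all genes rose and 23.3% to 28.3% fell. Shares of all genes for the other settings named here are given with the Results. Scaling to total counts lowered the count of all genes that fell from 4319 to 2164, so that 74.7% of calls rose against 50.4%, raised the related genes that rose from 17 to 31 and lowered those that fell from 61 to 34. With the replicate number as a replicate block, 23 members fell and 3 rose. Same-numbered samples shared little (correlations of deviations from -0.048 to 0.118), so the numbers were not taken to pair them. No called member changed sign under any of these alternatives. Depth limits Loxl4 and Timp1 most.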

Other observations

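Some matrix genes outside the 37, picked with their values already known, were high in the wild type libraries with the most bone and cartilage markers. Mmp13, a collagenase of growth cartilage, was at 19.5 and 23.2 CPM in WT 1 and WT 2. It was at 0.343 to 2.62 CPM in WT 3 to WT 5 and at 0.112 to 0.719 CPM in SMA. Mmp9, the protease gelatinase B, was at 24.2 and 19.8 CPM in WT 1 and WT 2 and at 0.391 to 4.43 CPM elsewhere. Spp1, which encodes osteopontin, was at 71.6 and 57.1 CPM in WT 1 and WT 2. In SMA it was at 0.0839 to 3.65 CPM, within the 0 to 4.15 CPM of WT 3 to WT 5. By edgeR's quasi-likelihood test all 3 fell in SMA, with adjusted p of 0.00942, 0.00275 and 0.0421, and the part of WT 1 and WT 2 in these calls was not tested. The matricellular gene Cyr61 rose (edgeR adjusted p = 0.00331), from 17.2 to 36.7 CPM in wild type to 65.0, 66.6, 27.3 and 56.8 CPM in SMA libraries 1 to 4, with SMA 3 within the wild type range. Ctgf, its relative and a target of TGF-beta, had 24.9 to 42.4 and 21.9 to 53.7 CPM and did not pass (0.35 ± 0.23, edgeR adjusted p = 0.221).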
